A study of Mus musculus with 24 samples.

Results

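The cytosolic ribosomal protein genes of mouse embryonic fibroblasts (MEFs, a mixed connective-tissue culture from whole embryos) were compared between cGAS knockout (KO) and wild-type (WT) cultures. Members were the genes of the deposited gene table whose names follow the Rpl and Rps pattern, leaving out names that end in -ps. GENCODE M21 gives 2 of them, Rps4l and Rps12l1, no coding transcript. This gave 85 of 45706 genes, of which 33 carry small-subunit names, 49 large-subunit names and 3 name the P stalk. The Mb21d1 product cGAS, absent in KO, senses DNA in the cytosol and signals through STING. Both genotypes were primary MEFs of the strain labelled C57B1/6, passaged under 20% oxygen. The KO groups were taken on day 33 at passage 11, on day 36 at passage 12 and on day 42 at passage 14, and the WT groups on the same days at the same passages. The labels do not say how the KO allele was made, how many embryos gave the cultures or whether embryos were pooled.

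Each ribosome is assembled from ribosomal RNA and about equal amounts of the many small-subunit and large-subunit proteins, so their genes are usually expressed together. Most of their mRNAs open with a pyrimidine-rich stretch, the 5′ terminal oligopyrimidine (TOP) motif, through which mTOR controls their translation. In fibroblasts their mRNAs are as a rule among the most abundant of all. A few members have a paralogue of narrower expression. In mouse, Rpl39l is known from male germ cells, Rpl3l from heart and skeletal muscle, and Rpl22l1 and Rps27l from many tissues.

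The 4 numbered samples of each genotype and day differed by no more than counting noise over genes, with a mean chi-square per degree of freedom of 0.832 to 0.843, so they were summed to 1 library. The 3 days are then the replicates of a genotype, n = 3 each. Nothing in the labels says that they came from separate animals or separate cultures, so the p-values measure the spread between these libraries over time. Library totals were 25651250 to 36447639 counts in KO and 35025184 to 48717439 counts in WT. The targeted gene Mb21d1 stood at 0.239, 0.0 and 0.127 CPM (counts scaled to a fixed library size with TMM factors) in KO on the 3 days in order, against 4.74, 4.08 and 4.82 CPM in WT. The genotypes also differed in sex-linked transcripts. Xist, the RNA that coats the inactive X chromosome, was at 465 to 641 CPM in KO and 0.0573 to 0.363 CPM in WT, and the Y-linked Uty was at 2.69 to 2.91 CPM in KO and 29.9 to 32.0 CPM in WT. Genotype and the sex of the embryos therefore cannot be told apart. All 15 fibroblast markers passed the filter on low counts. Of these 14 were lower in KO, with a median log2 fold change of −0.62, 9 at an unadjusted p below 0.05 and 1, S100a4, called, and they summed to 57680 to 70660 CPM in KO and 67960 to 73220 CPM in WT. Macrophage markers were 15, of which 12 were tested and none was called, and their summed level over the days was 71.5, 8.73 and 7.15 CPM in KO and 154, 34.1 and 10.9 CPM in WT. The part of either list in the results below was not tested.

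Most members were listed far below the level of a typical ribosomal protein mRNA. All 85 together took 0.415%, 0.463% and 0.463% of the counts in KO on days 33, 36 and 42, and 0.370%, 0.367% and 0.315% in WT. Of their 890900 counts, 73.1% fell on 6 genes, among them Rpl4, Rpl8 and Rps3, while 42 members had under 1000 counts over all 6 libraries and 7 had under 100. Ribosomal protein genes have many processed pseudogenes, copies of their mRNA pasted back into the genome. In GENCODE M21 transcripts, 80 of the 83 members with a coding transcript shared at least one stretch of 50 bases with another annotated gene, with a median of 10 such genes. The 12 members that shared with at most 2 genes had a median of 36560 counts, the 26 that shared with 3 to 9 genes had 1320, and the 45 that shared with 10 or more had 614. Outside the family, Gapdh, a glycolytic enzyme, had 1356 counts in all, and Ppia, a prolyl isomerase, had 1050. Both were picked by hand, and the sequence they share with other genes was not measured. How reads that match several places were treated is not given in the sources used here, and its part in the levels was not tested. Rows named as ribosomal protein pseudogenes held a further 13.2% to 13.9% of the family's counts in every library.

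**Figure D1:**
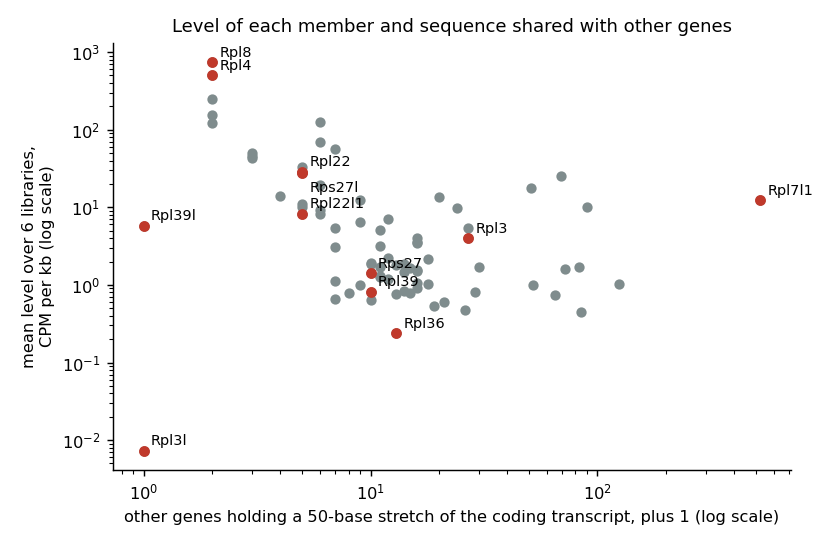
Mean level of each member over 6 libraries, in CPM per kilobase of the authors' gene length, against the number of other genes that hold at least one 50-base stretch of its coding transcript, plus 1, on log axes. Rpl8 and Rpl4, with 1 such gene each, lie at 742 and 500 CPM per kilobase, Rpl36 lies at 0.238, and Rpl39l and Rpl3l share with none; Rpl10l, with no counts, and 2 further members are not drawn.

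The coding sequences of both Rpl39 and Rps27 and of their paralogues show this sharing for the coding part of each pair. They are printed from GENCODE M21 transcripts (mouse build GRCm38), 5′ to 3′, with the bases that differ between paralogue and parent in capitals.
Rpl39l: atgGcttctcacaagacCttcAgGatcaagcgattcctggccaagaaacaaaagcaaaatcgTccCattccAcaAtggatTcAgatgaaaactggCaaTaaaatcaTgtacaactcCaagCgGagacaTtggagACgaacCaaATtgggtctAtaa
Rpl39: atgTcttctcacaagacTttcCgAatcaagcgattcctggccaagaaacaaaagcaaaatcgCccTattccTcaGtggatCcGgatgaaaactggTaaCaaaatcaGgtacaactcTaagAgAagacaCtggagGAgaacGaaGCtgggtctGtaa
Rps27l: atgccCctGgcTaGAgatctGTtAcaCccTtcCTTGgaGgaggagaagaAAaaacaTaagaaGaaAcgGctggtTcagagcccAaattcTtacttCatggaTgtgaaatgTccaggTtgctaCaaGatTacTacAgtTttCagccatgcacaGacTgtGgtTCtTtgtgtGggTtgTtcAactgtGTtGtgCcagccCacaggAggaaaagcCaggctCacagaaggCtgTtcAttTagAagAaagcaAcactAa
Rps27: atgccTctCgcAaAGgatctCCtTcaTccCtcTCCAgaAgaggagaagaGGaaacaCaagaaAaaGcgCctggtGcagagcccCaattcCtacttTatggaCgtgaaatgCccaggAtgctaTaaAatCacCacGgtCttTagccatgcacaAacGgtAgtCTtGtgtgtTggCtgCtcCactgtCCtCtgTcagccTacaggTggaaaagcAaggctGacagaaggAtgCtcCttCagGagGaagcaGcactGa
The Rpl39l coding sequence lies in a single uninterrupted stretch on the plus strand, chr16:10174310-10174465, in the last part of a gene that spans chr16:10170226-10174911. That of Rpl39 is spread over 3 exons on the minus strand between 37082701 and 37085127 of chromosome X. The sequences are 156 bases long and differ at 23 bases, 85.3% identity, in 21 codons, of which 18 encode the same residue and 3 another. No 50-base window of the Rpl39l coding sequence occurs in another gene, whereas 90 of the 107 windows of Rpl39 do, in 8 genes. Over the whole coding transcript, untranslated ends included, 100% of the stretches of Rpl39l and 83.5% of those of Rpl39 were found in no other gene. The Rps27l coding sequence runs from 66946175 to 66949357 on the plus strand of chromosome 9, and that of Rps27 from 90212725 to 90213615 on the minus strand of chromosome 3. Both are 255 bases long and differ at 61 bases, 76.1% identity, and 51 of the 54 codons that differ encode the same residue. Of 206 windows of Rps27l 101 occur in other genes, and of 206 windows of Rps27 all 206 do. Over the whole coding transcript, 77.6% of the stretches of Rps27l and 1.4% of those of Rps27 were found in no other gene. The parent's count enters every share of a pair given below.

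Among the highest levels per length were those of Rpl8 at 742, Rpl4 at 500, Rpl14 at 251 and Rps9 at 156 CPM per kilobase, averaged over 6 libraries. Rpl8, Rpl4 and Rpl14 encode large-subunit proteins, and Rps9 a small-subunit protein. Each of these 4 shared a 50-base stretch with 1 other gene. The lowest were Rpl10l with no counts, Rpl3l at 0.00731, Rps12l1 at 0.22, Rpl36 at 0.238 and Rpl29 at 0.45 CPM per kilobase. Rpl36, an ordinary member of the large subunit, had 22 counts in 6 libraries. For 7 members with counts (Rpl3, Rpl7a, Rpl10a, Rpl13, Rpl18, Rpl36a and Rps18) no count lay on a transcript that GENCODE M21 types as protein-coding. For Rpl10a and Rpl18 the coding transcript chosen from GENCODE M21 is not among the deposited transcripts. The counts of these members lay on deposited transcripts that GENCODE M21 types otherwise or does not list.

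Rpl39l was the one member listed almost solely in WT. It encodes a close relative of Rpl39, a small protein of the large subunit that lines the exit tunnel. Its level was 0.0299, 0.112 and 0.0 CPM in KO over the days, which are 1, 3 and 0 counts. In WT it was 12.6, 8.74 and 7.51 CPM, which are 591, 381 and 262 counts. All 3 KO libraries lay below all 3 WT libraries. Over the summed libraries the 4 counts in KO and the 1234 in WT gave a level 245 times as high in WT, with a 95% exact interval of 95.6 to 902 that covers counting error only. The fitted log2 fold change was −7.77 ± 0.61 (SE), KO over WT, with an adjusted p of 0.00638 by edgeR's quasi-likelihood test. The fold change depends on the prior count because KO is near 0. Rpl39l passed the filter on low counts only through its WT libraries, so this p describes the difference and is not separate support for it. Without both day 36 libraries, with n = 2 each, the edgeR adjusted p was 0.0876 at a log2 fold change of −9.21. Both annotated protein-coding transcripts were listed in WT, the transcript of 553 bases with 498, 322 and 234 counts and that of 808 bases with 114, 72 and 39 counts. In KO the transcript of 553 bases had 1, 3 and 0 counts and that of 808 bases had 0 in every library.

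Germ-cell markers were read beside Rpl39l because that is its known site of expression. Of 13 germ and pluripotent cell markers 1, Ddx4, was high enough to test. Ddx4, an RNA helicase of germ cells, was at 0.479, 0.522 and 0.406 CPM in KO and at 2.29, 1.7 and 2.44 CPM in WT, and it fell, with a log2 fold change of −2.19 ± 0.24 (SE) and an edgeR adjusted p of 0.00924. The list summed to 1.02, 0.933 and 0.938 CPM in KO and to 3.08, 2.32 and 4.27 CPM in WT. Pou5f1 and Dppa5a had no counts, Tnp1, Prm2 and Stra8 had 1 count each over all libraries, and Dazl and Sycp3 had 14 each. Prm1 had 8, Sycp1 9, Zfp42 21, Nanog 49 and Sox2 61. Sox2 was at 0.0299, 0.0373 and 0.0254 CPM in KO and at 0.278, 0.229 and 1.0 CPM in WT. Nanog overlapped between the genotypes, at 0.127 to 0.299 CPM in KO and 0.161 to 0.401 CPM in WT. Sycp3, Prm1, Prm2 and Stra8 had the higher mean in KO. The part of germ-like cells in the Rpl39l result was not tested.

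Rpl39, the parent, was at 1.44, 1.01 and 1.6 CPM in KO and at 0.854, 1.31 and 0.831 CPM in WT, and the groups overlapped. Its log2 fold change was 0.44 ± 0.28 (SE) with an edgeR adjusted p of 0.377. Per length, Rpl39l made up 4.4%, 15.9% and 0.0% of the pair in KO and 96.2%, 92.0% and 94.0% in WT, a mean of 6.75% ± 8.19 in KO and 94.1% ± 2.08 in WT (SD, n = 3 each). The exact two-sided permutation p was 0.1, the smallest that 3 against 3 libraries allow. The WT share is not the composition of the Rpl39 protein pool, since the coding transcript of Rpl39 received 127 counts over all 6 libraries.

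**Figure D2:**
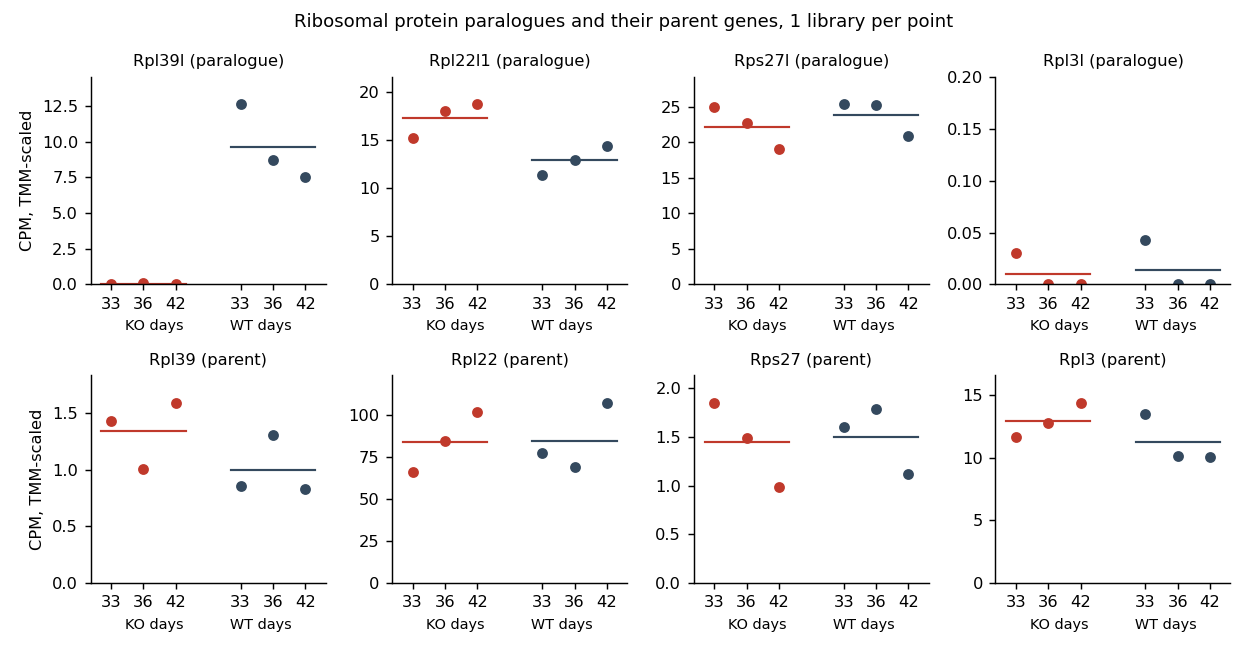
Level in TMM-scaled CPM of 4 paralogues (top) and their parent genes (bottom) on days 33, 36 and 42, KO left and WT right of each panel, 1 library per point, with a line at the genotype mean and axes from 0 that differ between panels. Rpl39l lies at 0.0 to 0.112 CPM in KO and 7.51 to 12.6 CPM in WT, and Rpl22l1 lies higher in every KO library, 15.2 to 18.7 CPM, than in any WT library, 11.4 to 14.4 CPM.

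Rpl22l1 encodes the paralogue of Rpl22, a large-subunit protein not needed for translation itself, and in mouse Rpl22 is known to hold Rpl22l1 mRNA down. Rpl22l1 was at 15.2, 18.03 and 18.7 CPM in KO and at 11.4, 12.9 and 14.4 CPM in WT. Every KO library was above every WT library, and within each genotype the level was higher on each later day. The log2 fold change was 0.43 ± 0.13 (SE), and it did not pass the threshold, with an edgeR adjusted p of 0.101. Rpl22 was at 65.7, 84.3 and 102 CPM in KO and at 77.1, 68.7 and 107 CPM in WT, a log2 fold change of −0.01 ± 0.22 (SE) with an edgeR adjusted p of 0.989. Of the 4216 transcript counts of Rpl22l1 2107 lay on coding transcripts, and 34.4% of the 50-base stretches of its coding transcript were found in no other gene. For Rpl22 89.9% of the transcript counts lay on coding transcripts and 94.8% of the stretches were its own, so the pair's share is not a ratio of coding mRNAs either. Per length, Rpl22l1 made up 26.9%, 25.4% and 22.7% of the pair in KO and 19.1%, 23.0% and 17.6% in WT. The means were 24.99% ± 2.12 in KO and 19.9% ± 2.8 in WT (SD, n = 3 each), a difference that the exact permutation test put at p = 0.2.

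Rps27l encodes the paralogue of the small-subunit zinc-finger protein Rps27 and in human cells is a target of p53. It was at 24.95, 22.7 and 18.99 CPM in KO and at 25.4, 25.2 and 20.8 CPM in WT, with a log2 fold change of −0.10 ± 0.14 (SE) and an edgeR adjusted p of 0.686. The level was lowest on day 42 in both genotypes. Rps27 was listed at 1.85, 1.49 and 0.989 CPM in KO and at 1.6, 1.79 and 1.12 CPM in WT. Its principal coding transcript had no counts at all, so the share of Rps27l, 95.2% ± 0.783 in KO and 95.3% ± 0.616 in WT (SD, n = 3 each, exact permutation p = 0.8), is not a ratio of the coding mRNAs.

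Rpl3l, the muscle paralogue of Rpl3, had 1 count in KO and 2 in WT over all libraries. It shares no stretch with another gene, and 3 counts correspond to 0.0641 to 0.111 CPM in a library of this depth, so any level below that was not detectable. Myod1, Myf5 and Myf6, regulators that define skeletal muscle, had no counts in any library, and Myog had 1. Ckm, Myh3 and Tnnt3 had 4, 21 and 41 counts. Other muscle markers were higher, with Acta1 at 201.5 to 653 CPM, Actn2 at 90.4 to 143 CPM and Myh8 at 2.23 to 3.64 CPM over all libraries. The 13 muscle markers summed to 298 to 472 CPM in KO and 471 to 803 CPM in WT. Rpl3, which helps form the peptidyl transferase centre, was at 11.6, 12.8 and 14.4 CPM in KO and 13.45, 10.2 and 10.03 CPM in WT, none of it on the coding transcript.

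The other paralogue pairs were read in the same way. Rpl10l, a germ-cell paralogue of Rpl10, had no counts. Rpl36al was at 19.5, 21.8 and 19.9 CPM in KO and 18.1, 18.4 and 15.3 CPM in WT, with a log2 fold change of 0.24 ± 0.11 (SE) and an edgeR adjusted p of 0.216. Rpl7l1, a relative of Rpl7 whose yeast counterpart acts in early large-subunit assembly, was at 32.6, 35.5 and 38.0 CPM in KO and 28.8, 29.1 and 30.5 CPM in WT, with a log2 fold change of 0.26 ± 0.09 (SE) and an edgeR adjusted p of 0.119. In both, every KO library was above every WT library. Rps4l, which GENCODE M21 lists as a transcribed processed pseudogene on chromosome 6, went the other way. It was at 5.24, 6.57 and 4.01 CPM in KO and 12.0, 8.92 and 6.74 CPM in WT, with no overlap, a log2 fold change of −0.81 ± 0.27 (SE) and an edgeR adjusted p of 0.114. Its share of the pair with Rps4x was 79.05% ± 3.7 in KO and 90.9% ± 2.76 in WT (SD, n = 3 each), with an exact permutation p of 0.1, the smallest possible.

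Beyond the paralogues, most members were slightly higher in KO, and few passed the test. Of the 85 members 80 passed the filter on low counts. Rpl3l, Rpl10l, Rpl36, Rps12 and Rps12l1 did not, and Rpl39l passed only through its WT libraries. At an adjusted p below 0.05, edgeR called 2 members higher, against 4.07% of all 17233 tested genes, and 1 lower, Rpl39l, against 4.65% of all genes. The 3 called members are 3.75% of those tested, near or below the share of all genes. At an unadjusted p below 0.05 there were 19 members, 17 of them higher, which compares with 27.3% of all genes. Of the 80 members 70 had a positive log2 fold change, against 49.1% of all genes, and the median was 0.25 (quartiles 0.17 and 0.41), against −0.01 (quartiles −0.26 and 0.22) over all genes. In 29 members every KO library was above every WT library, where 17.2% of all genes were, and in 2 members, Rpl39l and Rps4l, every KO library was below every WT library, where 17.1% of all genes were. The 29 are 36.2% of the tested members.

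Members with little and with much shared sequence had similar medians. The median log2 fold change was 0.22 for the 10 tested members sharing with at most 2 genes, 0.28 for the 26 sharing with 3 to 9 and 0.25 for the 43 sharing with 10 or more. By class, 28 of 31 small-subunit members had a positive value with a median of 0.26, and 40 of 46 large-subunit members with a median of 0.24. Dividing by library totals, with no TMM factors, moved the median of all genes to 0.11 and that of the members to 0.37, so both medians shifted together.

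**Figure D3:**
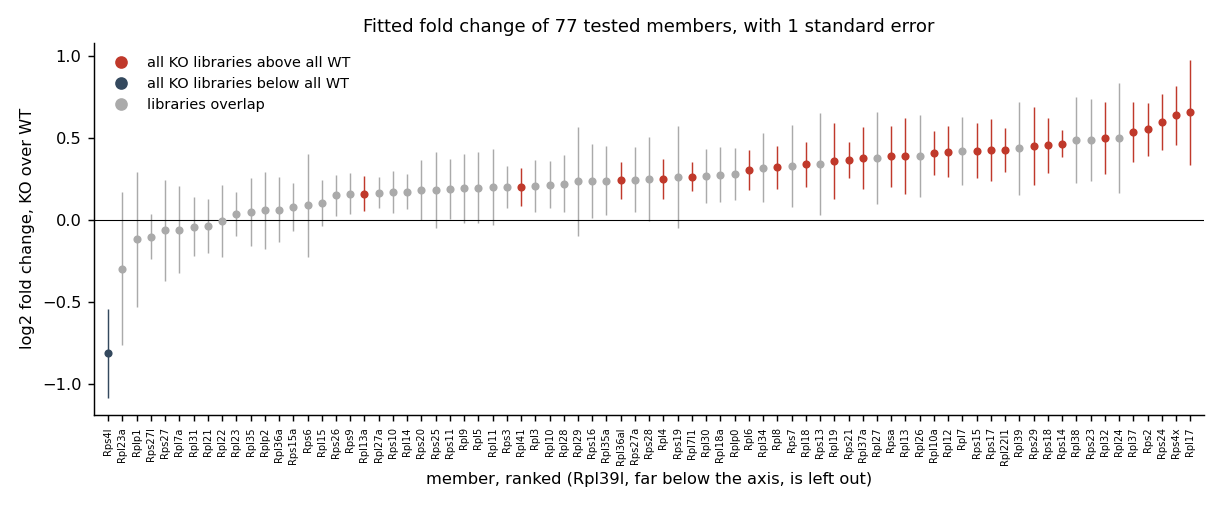
Fitted log2 fold change, KO over WT, of 77 tested members, ranked, with 1 standard error; red points have all 3 KO libraries above all 3 WT libraries and dark points all below. The 77 values run from −0.81 to 0.66 and 68 of them are above 0, with Rpl39l, at −7.77, and 2 further members not drawn.

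Rps14 was one of the 2 members called higher. Rps14, a small-subunit protein near the decoding centre and the gene lost in the human 5q- syndrome, was at 76.6, 85.3 and 78.3 CPM in KO and at 55.8, 58.2 and 59.9 CPM in WT. The groups did not overlap and the spread within each was small, 80.05 ± 4.61 CPM in KO and 57.97 ± 2.09 CPM in WT (SD, n = 3 each). The log2 fold change was 0.47 ± 0.08 (SE) with an edgeR adjusted p of 0.0236, and all of its counts lay on coding transcripts. Leaving out 1 library lost the call in 4 cases, with an edgeR adjusted p of 0.109 for the KO library of day 36, 0.0853 for KO of day 42, 0.109 for the WT library of day 33 and 0.0681 for WT of day 36, at log2 fold changes of 0.42 to 0.48.

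Rpl4, Rpl8, Rpl14 and Rps9, all with high counts, missed the threshold. Rpl4 was at 715, 791 and 824 CPM in KO and at 684, 703 and 574 CPM in WT, with a log2 fold change of 0.25 ± 0.12 (SE) and an edgeR adjusted p of 0.245. Rpl8 was at 711, 755 and 679 CPM in KO and at 587, 642 and 489 CPM in WT, with a log2 fold change of 0.32 ± 0.13 (SE) and an edgeR adjusted p of 0.171. In both genes every KO library was above every WT library. Rpl14 was at 239, 253 and 258 CPM in KO and 241, 231 and 195 CPM in WT, and Rps9 was at 404, 428 and 417 CPM in KO and 407, 399 and 313 CPM in WT. In both, the groups overlapped and the WT library of day 42 was the lowest.

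Day 42 carried much of the difference between the genotypes. With 1 library per genotype and day there is no test, and a member was counted as past the threshold at 1.5-fold with at least 5 CPM in the higher library. The median log2 difference of the 80 members, KO over WT, was 0.16 on day 33, 0.16 on day 36 and 0.42 on day 42, with that of all genes between −0.01 and 0.0. Positive differences were found in 61, 56 and 73 members on the 3 days. Without the WT library of day 42 the median fitted log2 fold change of the members was 0.17, and 66 of 80 were positive.

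On day 33, 3 of 41 members eligible were past 1.5-fold higher in KO (6.48% of all genes), Rps15, Rpl37 and Rpl38, and 2 lower (8.01% of all genes), Rpl39l and Rps4l. Rpl38, a small large-subunit protein known in mouse for its part in translating Hox mRNAs, led that day at a log2 difference of 0.87, with 6.91 CPM in KO and 3.76 CPM in WT. Rps15 followed at 0.61. On day 36, 4 of 44 were higher (8.97% of all genes), Rpl37, Rpl37a, Rps15 and Rps24, and 1 lower (9.43% of all genes), Rpl39l. Rpl37 led at 0.72, with 6.57 CPM in KO and 3.97 CPM in WT, and Rps24 followed at 0.68. On day 42, 6 of 43 were higher (10.4% of all genes), Rpl5, Rpl9, Rpl10a, Rpl12, Rpl30 and Rps24, and 2 lower (12.9% of all genes), Rpl39l and Rps4l. Rpl12, a protein at the base of the P stalk, led at 0.83, with 15.3 CPM in KO and 8.63 CPM in WT, and Rpl5 followed at 0.81. Rpl39l was lower on all 3 days and Rps4l on days 33 and 42, while Rps15 and Rpl37 were higher on days 33 and 36 and Rps24 on days 36 and 42.

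Between day 33 and day 42 the members' median was near 0 in KO and negative in WT. The median log2 difference, day 42 over day 33, was 0.02 in KO and −0.29 in WT, against 0.01 and 0.0 for all genes. In KO 45 of 80 members had a positive difference and in WT 16 of 80. In KO, 2 of 44 members were past 1.5-fold higher (4.21% of all genes), Rpl22 and Rps19, and 2 lower (6.37% of all genes), Rpl38 and Rplp1. In WT none of 38 was higher (7.61% of all genes) and 6 were lower (6.52% of all genes), Rpl39l, Rplp1, Rplp2, Rps4l, Rps16 and Rps20. From day 33 to day 36 no member was past the threshold in either genotype, with medians of 0.08 in KO and 0.05 in WT. The difference between the genotypes in their course was not tested, since each point is 1 library.

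**Figure D4:**
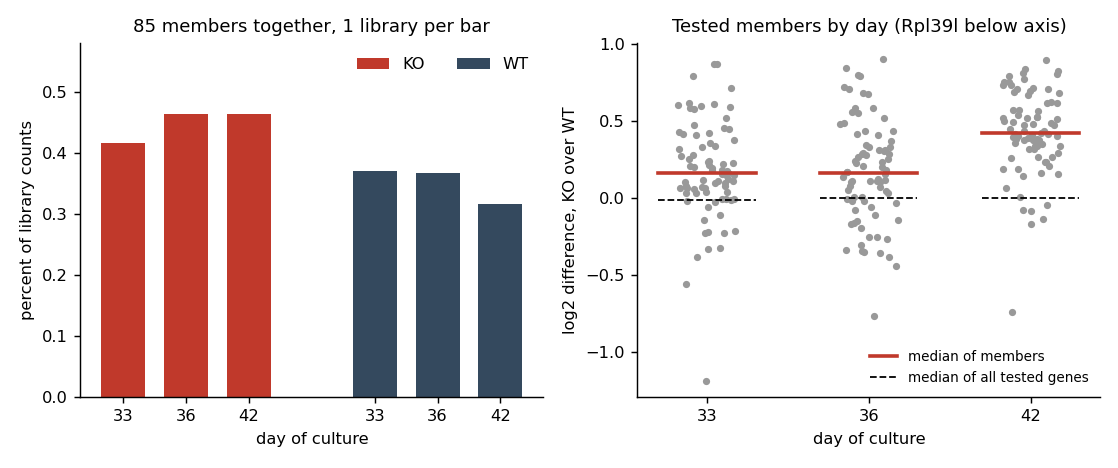
Left, percent of all counts taken by the 85 members, 1 library per bar, KO left and WT right, on days 33, 36 and 42, with 0.415% to 0.463% in KO and 0.315% to 0.370% in WT. Right, log2 difference KO over WT of each tested member by day (points, spread sideways for legibility, Rpl39l below the axis), with the medians of members at 0.16, 0.16 and 0.42 and those of all tested genes near 0.

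The P stalk, which recruits elongation factors to the ribosome, is built of Rplp0 as its base and of Rplp1 and Rplp2 dimers. Over the days Rplp1 was at 72.9, 70.7 and 38.8 CPM in KO, and at 84.8, 80.8 and 32.2 CPM in WT. It was lowest on day 42 in both genotypes, at a log2 difference from day 33 of −0.91 in KO and −1.40 in WT. Rplp2 was at 109, 80.1 and 79.8 CPM in KO and 98.0, 101 and 59.1 CPM in WT. Rplp0 was at 23.1, 25.1 and 19.3 CPM in KO and 19.6, 20.7 and 15.2 CPM in WT. In all 3 the genotypes overlapped and missed the threshold, with edgeR adjusted p of 0.885, 0.903 and 0.304. Rpl22 ran against them over time, with day 42 over day 33 at 0.63 in KO and 0.48 in WT on the log2 scale.

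**Figure D5:**
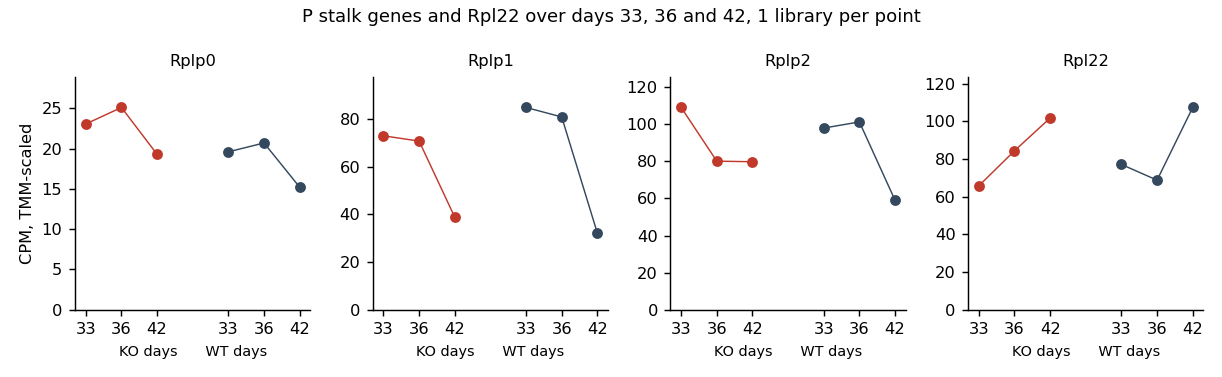
Level in TMM-scaled CPM of the P stalk genes Rplp0, Rplp1 and Rplp2 and of Rpl22 on days 33, 36 and 42, KO left and WT right, 1 library per point. Rplp1 is lowest on day 42 in both genotypes, at 38.8 CPM in KO and 32.2 CPM in WT, while Rpl22 is highest on that day, at 102 CPM in KO and 107 CPM in WT.

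Rpl5, Rpl11 and Rpl23 are among the members known to bind and inhibit MDM2 when ribosome assembly is disturbed, which frees p53. Rpl5 was at 3.98, 4.44 and 5.83 CPM in KO and 4.66, 4.49 and 3.3 CPM in WT, Rpl11 at 3.89, 3.32 and 3.85 CPM in KO and 3.67, 3.71 and 2.24 CPM in WT. Rpl23 was at 45.5, 45.1 and 47.1 CPM in KO and 50.3, 47.6 and 36.2 CPM in WT. The genotypes overlapped in all 3, with edgeR adjusted p of 0.614, 0.633 and 0.887. In the p53 list, 2 of 8 tested genes fell, where 4.65% of all genes did, and none rose. Cdkn2a, which encodes the MDM2 inhibitor ARF and the CDK inhibitor INK4A, was at 40.3, 44.2 and 37.6 CPM in KO and 109, 100 and 84.9 CPM in WT, with a log2 fold change of −1.27 ± 0.12 (SE) and an edgeR adjusted p of 0.00824. Cdkn1a, the p53 target p21, was at 409, 328 and 269 CPM in KO and 580, 592 and 501 CPM in WT, with a log2 fold change of −0.73 ± 0.17 (SE) and an edgeR adjusted p of 0.0478.

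The members on chromosome X are Rps4x, Rpl10, Rpl36a and Rpl39. Rps4x was at 2.12, 2.58 and 2.33 CPM in KO and 1.39, 1.58 and 1.55 CPM in WT, every KO library above every WT library, with a log2 fold change of 0.64 ± 0.18 (SE) and an edgeR adjusted p of 0.0781. Rpl10 was at 8.14, 8.81 and 8.19 CPM in KO and 8.48, 6.79 and 6.36 CPM in WT, and Rpl36a at 2.69, 2.95 and 3.75 CPM in KO and 3.4, 2.93 and 2.67 CPM in WT. The genotypes overlapped in both and in Rpl39. Since Xist marks the KO libraries, sex and genotype cannot be told apart for these genes.

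The TOP motif was looked for at RefSeq transcript starts (GRCm38.p6), as a C followed by at least 4 bases that are each C or T, on the transcribed strand. Entries were found for 63 of the 85 members, with 75 starts. A run read from the annotated first base, whatever bases lay before it, was found in 17.3% of member starts and 2.51% of all 32851 starts. Within 5 bases of the first base a run began in 41.3% of member starts and 18.3% of all starts. All starts with an entry of the Rpl39, Rpl22 and Rps27 pairs, and that of the stalk gene Rplp2, are shown with 15 bases before the first base and 15 from it on, to let paralogue and parent be compared. Capitals mark a run that begins within 5 bases of the first base, read from the start nearest to that base.
Rpl39l, chr16:10170213-10170242 (+): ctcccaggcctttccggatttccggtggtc
Rpl39, chrX:37085208-37085237 (-): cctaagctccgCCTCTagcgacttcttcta
Rpl22l1, chr3:28805493-28805522 (+): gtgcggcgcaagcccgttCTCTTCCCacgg
Rpl22, chr4:152325711-152325740 (+): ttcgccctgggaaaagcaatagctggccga
Rpl22, chr4:152324421-152324450 (+): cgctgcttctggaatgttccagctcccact
Rps27l, chr9:66946071-66946100 (+): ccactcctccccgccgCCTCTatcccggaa
Rps27l, chr9:66946398-66946427 (+): accatgggcttcagggtcactaacgggcct
Rps27, chr3:90213634-90213663 (-): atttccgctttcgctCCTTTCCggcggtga
Rplp2, chr7:141447636-141447665 (+): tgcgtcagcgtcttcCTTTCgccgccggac
In Rps27 and Rplp2 a run can be read from the first base, though C and T bases also lie directly before it. In Rpl39l, in both starts of Rpl22 and in the second start of Rps27l no run begins within 5 bases of it, though runs lie elsewhere in some of these windows, in Rpl39l on the upstream side. The start of Rpl4 and each start of Rpl3l, read in the same way and not printed, had no run within 5 bases either. A match is a description of these letters and not a measured TOP mRNA.

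Genes around the ribosome were read from lists of the same fit. Among 4 tested ribosomal protein genes outside the naming rule none was called and all 4 had a positive value. Of these Gnb2l1, which encodes the small-subunit scaffold RACK1, was at 1331, 1400 and 1300 CPM in KO and 1099, 1180 and 948 CPM in WT, with a log2 fold change of 0.32 ± 0.12 (SE) and an edgeR adjusted p of 0.153. Over all genes of this fit 4.07% were called higher and 4.65% lower, and 49.1% had a positive value, the background for the list counts here. Of 59 ribosome biogenesis factors 4 rose, none fell and 55 had a positive value, with a median log2 fold change of 0.25, the same as that of the members. Tcof1, which serves ribosomal RNA transcription, was at 88.4, 95.4 and 88.6 CPM in KO and 63.8, 59.7 and 57.1 CPM in WT, a log2 fold change of 0.59 ± 0.08 (SE) with an edgeR adjusted p of 0.0131. Rrp1b, a nucleolar processing factor, had a log2 fold change of 0.72 ± 0.12 (SE) with an edgeR adjusted p of 0.0208, Heatr1, a factor of early small-subunit assembly, 0.55 ± 0.11 with 0.037, and Pelp1, of large-subunit maturation, 0.42 ± 0.09 with 0.0404. Of 32 genes of RNA polymerases I and III 1 rose, Polr1b, the second-largest subunit of polymerase I. It was at 38.3, 42.4 and 55.2 CPM in KO and 28.4, 28.9 and 23.4 CPM in WT, a log2 fold change of 0.75 ± 0.16 (SE) with an edgeR adjusted p of 0.0404.

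Of 32 initiation factors 2 rose and none fell. For this list and those that follow, the background is again 4.07% of all genes higher and 4.65% lower. The X-linked Eif2s3x, a subunit of eIF2, was at 188, 208 and 187 CPM in KO and 123, 125 and 97.4 CPM in WT, a log2 fold change of 0.76 ± 0.12 (SE) with an edgeR adjusted p of 0.0182. Its Y-linked counterpart Eif2s3y was at 6.23 to 6.97 CPM in KO and 53.7 to 69.0 CPM in WT. Eif3e, a subunit of eIF3 and the sole call among 19 other TOP transcripts, had a log2 fold change of 0.39 ± 0.09 (SE) with an edgeR adjusted p of 0.0437. None of 6 elongation factors and none of 75 mitochondrial ribosomal protein genes was called, and the mitochondrial list had a median of 0.09. At an unadjusted p below 0.05 there was 1 elongation factor, Eef1a1, and there were 6 mitochondrial genes, where 27.3% of all genes were. Of 20 mTOR and TOP regulators 1 fell, Deptor, an inhibitor bound to mTOR, at 3.11, 2.69 and 2.23 CPM in KO and 7.35, 6.35 and 11.6 CPM in WT, a log2 fold change of −1.65 ± 0.27 (SE) with an edgeR adjusted p of 0.0198.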

How the data were processed

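RNA was extracted on RNeasy columns and made into TruSeq stranded mRNA libraries, per the labels' protocols. The submitters' processing notes name the build mm10, Bowtie2 2.2.1 and limma 3.18.13; how reads matching several places were assigned is not given in the sources used here. Per the file headers, the authors' gene table holds estimated counts (fractional, not normalized) and RPKM, and their transcript table estimated counts. Another 24 columns, RPKM per transcript, were not used. Estimated counts of the 4 numbered samples of a genotype and day were summed, because they differed by no more than counting noise, and rounded to whole numbers. Same-numbered columns of different groups did not deviate together (correlations of −0.033 to 0.032), so numbers pair nothing.

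edgeR 4.0.16 (R 4.3.3) fitted genotype over 6 libraries with TMM factors, filterByExpr and the robust quasi-likelihood test, with Benjamini-Hochberg adjustment over 17233 genes and a threshold of 0.05. Log2 differences between single libraries used a prior count of 2. Levels were compared between genes only per length, from counts divided by the deposited gene length. Shares of a pair were tested by exact two-sided permutation. DESeq2 1.42.0, limma-voom (limma 3.58.1), other scalings and filters, left-out libraries and the authors' deposited RPKM were alternatives. The scripts were tested on simulated data. Sequence sharing was read from GENCODE M21 transcripts in stretches of 50 bases, coordinates are GRCm38, and transcript starts are RefSeq's. The genes named are the pairs, called members, the highest and lowest 5 per length, X-linked members, and Rpl5, Rpl11 and Rpl23 as MDM2 binders. The 2 largest differences each way on each day and up to 4 called genes of other lists are named too. Further members past the single-day threshold and the 3 stalk genes were named after their values were seen. A few members that this rule names are not reported here, though the counts over all members include them. The members and lists were chosen with earlier results of these data known. Interval and floor cover counting error only.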

Additional observations from a re-analysis of the deposited data

How the results depend on the processing

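With 3 libraries per genotype, 1 from each day, the number of calls turned on single libraries. The count of members called higher was 2 and that called lower was 1. Leaving out a library, a day or a column number gave 0 to 2 members higher and 0 to 1 lower. Of all genes, 0.0% to 4.61% were called higher and 0.0171% to 5.72% lower in these fits. The fewest genes were called without day 36, where 0 members were. DESeq2 called 3 members higher, Rps14, Rps21 and Rps24, and 2 lower, Rpl39l and Rps4l, with 7.55% of all genes higher and 9.02% lower. Library totals without TMM factors gave 4 higher, with 5.93% of all genes higher. All genes with a count, day as a factor, and pseudogene rows added to the member each gave 1 higher, Rps14. Of all genes, 1.85%, 3.32% and 4.09% were higher in these 3 settings in order. The 24 columns differed within a group by no more than counting noise, and the labels do not say that they are separate cultures. Treating them as samples called 54 of 72 members higher and 3 lower, and 72.7% of all genes. The replicate block on column number gave 54 higher and 3 lower again. The median log2 fold change of the members was 0.17 to 0.37 over all these alternatives. The count of members whose libraries did not overlap, higher in KO, was 29 (17.2% of all genes). It became 46 with library totals (25.2% of all genes) and 31 to 40 without 1 library (19.4% to 25.9% of all genes). These counts were added after seeing the data. At 2-fold in place of 1.5-fold, 0 members were higher on days 33, 36 and 42, with 2.47%, 2.96% and 3.03% of all genes higher. Rpl39l was lower on each of these days and Rps4l on day 33 only, with 4.1%, 4.67% and 6.5% of all genes lower. Between days 33 and 42, 1 member, Rplp1, was lower in WT (2.08% of all genes). In KO 0 moved either way over that time (1.45% of all genes higher and 2.61% lower). At 1.5-fold with library totals, 8 members were higher on day 36, with 14.7% of all genes, and 17 on day 42, with 15.04% of all genes. The summed member share was 1.27 times as high in KO as in WT and 1.17 times with TMM-scaled totals. The share differences of the Rpl39l, Rpl22l1 and Rps27l pairs were −87.3, 5.1 and −0.113 percentage points, KO minus WT; leaving out a library or column number gave −91.9 to −83.9 for Rpl39l. Where a call changed with the test, scaling or filter, the cause was not tested. Counting depth was low for many members, with 42 of 85 under 1000 counts in all, and its part in the calls was not tested.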

Other observations

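Among genes that averaged at least 5 CPM, the members were not steadier over the 6 libraries than other genes. The median SD of log2 CPM was 0.21 over 37 such members and 0.2 over all 11581 such genes. Rps19, a small-subunit protein whose human gene is mutated in Diamond-Blackfan anaemia, was at 4.58, 3.66 and 7.86 CPM in KO over the days, and at 4.08, 3.94 and 5.45 CPM in WT, so that it was highest on day 42 in both genotypes. It was named after its values were seen.

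The remaining marker lists are given as values. The 7 endothelial markers summed to 12.9, 8.84 and 7.53 CPM in KO and to 15.6, 16.0 and 15.6 CPM in WT, and none of 4 tested was called (2 had an unadjusted p below 0.05). The 6 epithelial markers summed to 19.8, 21.2 and 24.04 CPM in KO and to 39.7, 35.9 and 19.6 CPM in WT, and none of 4 tested was called (1 had an unadjusted p below 0.05). Among fibroblast markers S100a4, a calcium-binding protein, was at 192, 234 and 171 CPM in KO and 379, 377 and 373 CPM in WT, a log2 fold change of −0.92 ± 0.13 (SE) with an edgeR adjusted p of 0.0133. Of 6 tested muscle markers 3 had a positive value, with a median log2 fold change of −0.07. Acta1, skeletal actin, was at 333, 322 and 201.5 CPM in KO and 503, 653 and 350 CPM in WT, a log2 fold change of −0.82 ± 0.28 (SE) with an edgeR adjusted p of 0.125. The single call was Tnni1, slow skeletal troponin I, at 1.59, 2.46 and 3.14 CPM in KO and 0.705, 0.871 and 1.0 CPM in WT, a log2 fold change of 1.48 ± 0.31 (SE) with an edgeR adjusted p of 0.0367.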
